A study of Mus musculus with 12 samples.

Results

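Major urinary proteins are small secreted lipocalins made by mouse hepatocytes and passed into the urine, where they bind and slowly release volatile pheromones. Their genes (Mup) form a tandem array of near-identical copies, and in the liver they are transcribed more in males than in females under the pulsatile male pattern of growth hormone, acting through its receptor, JAK2 and STAT5B, with androgens, glucocorticoids and thyroid hormone as further inputs. Individual males of outbred stocks secrete different sets of copies, whereas inbred males share much the same set.

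The transcripts described here are those of 9 Mup genes, namely Mup3, Mup7, Mup9, Mup11, Mup17, Mup19, Mup20, Mup21 and Mup22, taken by name from the 20093 genes listed for every one of 12 mouse livers. The tables hold 42 rows of Mup genes and pseudogenes, 40 of them in both, so that 31 shared rows (13 genes and 18 pseudogenes) are not members. Mup22 stands in the tables under a clone name and was matched by its Ensembl identifier. The 9 members were selected on measured values of these data, with earlier results known, and which values chose them is not recorded. Every level, contrast and call of a member below is therefore a description of these livers, and its adjusted p only places the gene among all genes of the same fit.

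The livers came from male C57BL/6N mice, 4 to 6 months old when injected, that all carried floxed alleles of Elavl1, the gene of the RNA-binding protein HuR. WT mice received the adeno-associated virus AAV8-Tbg-null and HuRHep-/- mice AAV8-Tbg-Cre, in which the Tbg promoter drives Cre in hepatocytes. Livers were taken on normal chow (3 WT and 3 HuRHep-/-) or after 16 weeks on the HFCF diet (3 WT and 3 HuRHep-/-), with 40 kcal% fat, 2% cholesterol and 20 kcal% fructose. The study's methods describe a cross to an Alb-Cre line in place of the virus, and the labels of the sequenced livers are followed here. The chow and HFCF livers stand in separate tables, so diet, table and any difference in age cannot be told apart.

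Each library held 30071731 to 35949203 counted reads. All 14 hepatocyte markers were found in both tables and summed to between 92137 and 162408 CPM, the read count scaled to the size of its library with TMM factors. Elavl1 itself went against its label. It had 938, 876 and 948 reads in the chow WT livers and 1475, 1265 and 1261 reads in the chow livers labelled HuRHep-/-, and on HFCF it had 904, 791 and 849 reads against 1299, 1242 and 1271 reads. Per library size it was higher in every liver labelled HuRHep-/- than in any WT liver of the same diet (log2 fold change 0.41, adjusted p = 0.0219 in chow, and 0.38, adjusted p = 0.0327 on HFCF, limma over all genes). The count covers the whole gene, and a transcript without the floxed segment would still be counted, so it does not check the deletion. The groups are therefore called by their labels, and a direction drawn from them is a direction between labels.

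One library stood apart for the Mup genes. HFCF WT replicate 3 had lower levels of 8 members, all but Mup20, than the other 2 HFCF WT livers, and the contrasts that rest on it are given for the members with and without it.

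All 9 members are protein-coding genes on the minus strand of chromosome 4 (GRCm38, GENCODE). The array of Mup genes and pseudogenes ran from Mup4 at chr4:59956804-59960710 to Mup21, with the transporter gene Slc46a2 and the zinc finger gene Zfp37 as its outer neighbours. In order of position the members were Mup7 at chr4:60066469-60070475, Mup9 at chr4:60418046-60421952, Mup11 at chr4:60658466-60662411, Mup22 at chr4:60817589-60821463, Mup17 at chr4:61591929-61595871, Mup19 at chr4:61778324-61782269, Mup20 at chr4:62050234-62054158, Mup3 at chr4:62083476-62087342 and Mup21 at chr4:62147932-62150863.

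The members were divided by their coding sequences, after their values were seen. Mup7, Mup9, Mup11, Mup17, Mup19 and Mup22, the 6 members in the body of the array, were 98.3% to 99.8% identical to each other over their 15 pairs. Mup20 was 90.4% to 91.3% identical to these, and Mup3 and Mup21, which were 95.4% identical to each other, were 83.2% to 85.1% identical to them. Mup20 encodes darcin, the male-specific urinary protein that attracts females. The 60 coding bases with the most differences from Mup7, summed over the members, show how little separates the 6 body copies. Capitals mark bases that differ from Mup7, and the stretch starts at coding base 212 in Mup7, Mup9, Mup17 and Mup19, at 215 in Mup11, Mup20, Mup21 and Mup22, and at 224 in Mup3.
Mup7: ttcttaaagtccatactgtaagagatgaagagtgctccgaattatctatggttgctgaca
Mup17: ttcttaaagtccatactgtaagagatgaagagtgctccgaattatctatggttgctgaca
Mup9: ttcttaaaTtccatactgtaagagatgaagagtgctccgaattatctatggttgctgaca
Mup19: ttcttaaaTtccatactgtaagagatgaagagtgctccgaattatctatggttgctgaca
Mup22: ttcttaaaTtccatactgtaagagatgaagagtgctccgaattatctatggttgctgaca
Mup11: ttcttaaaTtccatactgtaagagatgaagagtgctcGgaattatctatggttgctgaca
Mup20: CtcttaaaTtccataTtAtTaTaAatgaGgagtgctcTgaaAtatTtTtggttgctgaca
Mup21: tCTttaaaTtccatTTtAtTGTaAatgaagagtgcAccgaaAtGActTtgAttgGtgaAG
Mup3: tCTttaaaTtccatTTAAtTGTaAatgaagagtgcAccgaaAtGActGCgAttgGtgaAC
In this window Mup17 equalled Mup7, Mup9, Mup19 and Mup22 differed from it at 1 base, Mup11 at 2, Mup20 at 12, Mup21 at 19 and Mup3 at 21.

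**Figure D1:**
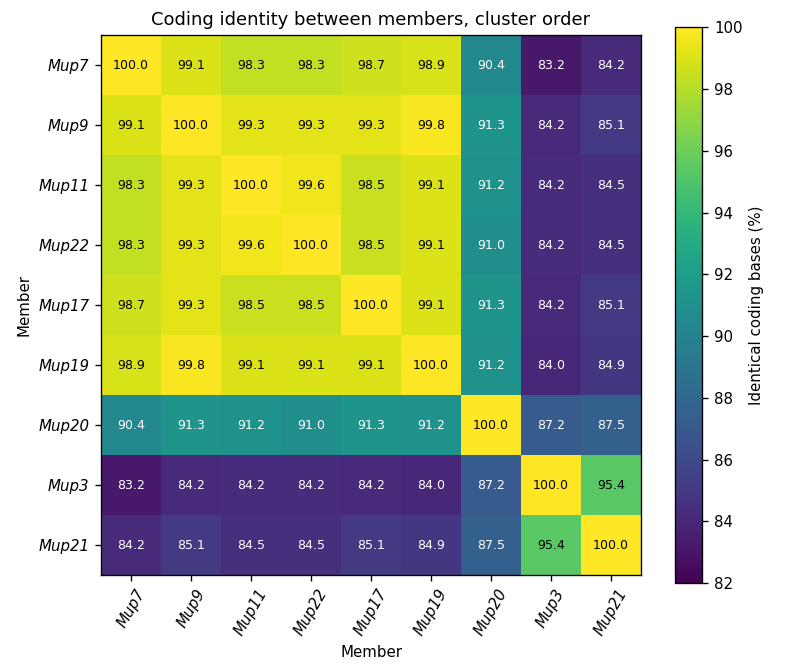
Identity of the coding sequences (percent of aligned bases that are the same) between the 9 Mup members, with both axes in order along the array. The 6 body members form a block between 98.3% and 99.8%, and Mup20, Mup3 and Mup21 lie below 92% against each of them.

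This likeness bears on how far a count belongs to 1 gene. When the principal transcript of each member was split into words of 31 bases, 84.4% of those of Mup7, 94.6% of Mup9, 89.4% of Mup11, 82.9% of Mup17, 96.5% of Mup19 and 93.7% of Mup22 also occurred in another member. For Mup19 and Mup22 every word recurred in another Mup row. By contrast 66.2% of the words of Mup21, 69.0% of Mup3 and 35.5% of Mup20 occurred in no other gene, and the closest match of Mup20 was the pseudogene Mup-ps19, which holds 51.2% of its words. How reads that match several Mup genes were shared out is not given in the sources used here, so a count of a single body member is uncertain, and the sum over members is given beside it.

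Promoter sequences (RefSeq, GRCm38.p6, 300 bases around the annotated start) were held for 7 of the 9 members, namely Mup3, Mup7, Mup9, Mup11, Mup17, Mup19 and Mup21. The motif TATATAA, searched on both strands, was found in 6 of them, all but Mup7, and in 3.24% of all 32851 promoters. The palindromic STAT-type motif TTCNNNGAA was found in none of the 7 windows and in 8.30% of all promoters. The 110 bases that end in TATATAA (in capitals) are shown for 2 body members and the 2 members at the distal end, because these pairs differed in their behaviour below. They lie on the minus strand at chr4:60662391-60662500 for Mup11, chr4:61782249-61782358 for Mup19, chr4:62087322-62087431 for Mup3 and chr4:62150843-62150952 for Mup21.
Mup11 promoter: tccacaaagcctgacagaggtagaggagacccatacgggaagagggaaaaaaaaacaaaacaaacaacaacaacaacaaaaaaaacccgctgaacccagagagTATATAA
Mup19 promoter: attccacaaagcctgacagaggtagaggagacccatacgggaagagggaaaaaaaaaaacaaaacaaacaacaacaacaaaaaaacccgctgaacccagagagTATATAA
Mup3 promoter: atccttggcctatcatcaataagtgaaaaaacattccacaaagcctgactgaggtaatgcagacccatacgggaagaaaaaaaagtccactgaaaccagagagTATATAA
Mup21 promoter: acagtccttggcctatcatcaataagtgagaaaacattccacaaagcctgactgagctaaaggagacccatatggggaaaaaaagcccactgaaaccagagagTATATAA
Mup11 and Mup19 carry a long run of A and C upstream of the TATA box, which is shorter in Mup3 and Mup21. Mup6, which is not a member, has a short run of A there and was called lower for genotype on HFCF. Whether this run bears on the levels was not tested.

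Summed over the 9 members, Mup reads made up 3.45%, 4.44% and 2.65% of all counted reads in the 3 chow WT livers and 3.67%, 4.50% and 4.69% in the chow livers labelled HuRHep-/-. On HFCF they made up 3.43%, 3.56% and 1.95% in WT livers and 1.14%, 1.58% and 1.55% in livers labelled HuRHep-/-. The latter 3 were the lowest of the 12, and HFCF WT replicate 3 was the next. The members held 84.3% to 98.4% of all reads counted to Mup rows, and adding the other rows left this order of the 4 groups in place, with 4.05% (chow WT), 4.83% (chow HuRHep-/-), 3.34% (HFCF WT) and 1.46% (HFCF HuRHep-/-) as the means.

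On the scale of summed CPM, the 9 members reached 38717 ± 8930.1 (SD, n = 3) in chow WT livers, 44798 ± 7138 in chow livers labelled HuRHep-/-, 29217 ± 9408 in HFCF WT livers and 12689 ± 2275 in HFCF livers labelled HuRHep-/-. The log2 difference between the genotype labels was 0.23 (SE 0.29) on chow and -1.18 (SE 0.32, 95% interval -1.92 to -0.43) on HFCF, or -1.47 without HFCF WT replicate 3. Between the diets it was -0.44 (SE 0.31) in WT livers (-0.14 without that liver) and -1.82 (SE 0.31, 95% interval -2.50 to -1.15) in livers labelled HuRHep-/-. No p is given for sums, since the rows were chosen with results known.

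**Figure D2:**
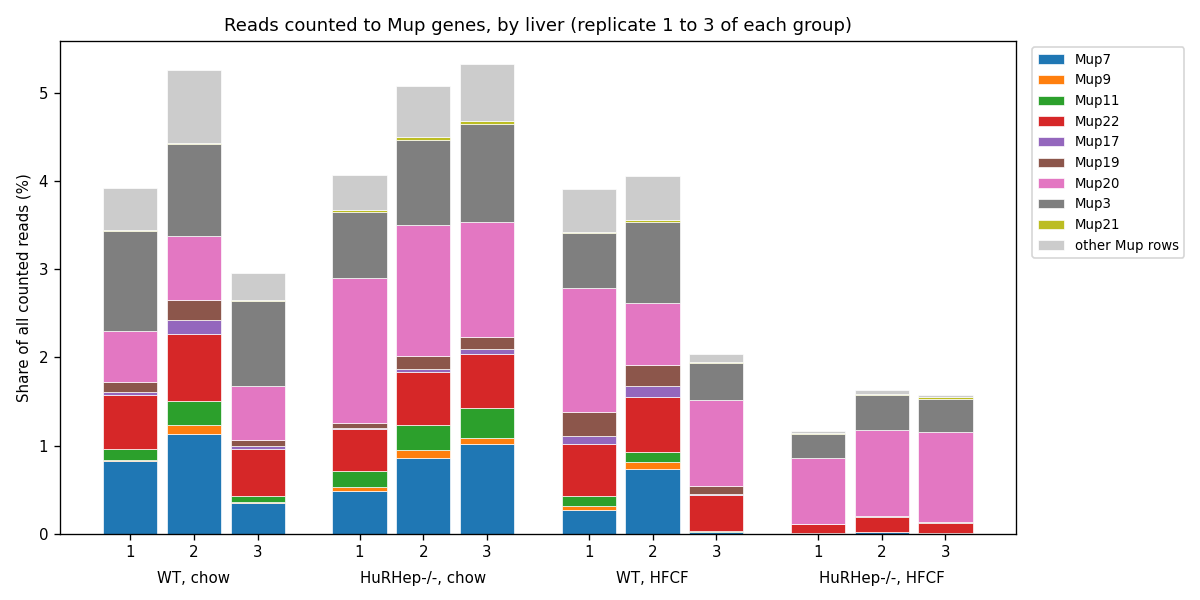
Share of all counted reads (percent) taken by each Mup member and, in light grey, by the 31 other Mup rows, as stacked bars for the 12 livers in their 4 groups. The bars of the 3 HFCF livers labelled HuRHep-/- total 1.17% to 1.63% and consist mainly of Mup20 and Mup3.

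The fall of the sum was not spread evenly over the members. The 6 body members together held 19487, 28324 and 11843 CPM in chow WT livers and 12714, 20621 and 24373 CPM in chow livers labelled HuRHep-/-. On HFCF they held 13065, 19648 and 5171 CPM in WT livers and 994, 1811 and 1126 CPM in livers labelled HuRHep-/-, a log2 difference of -3.13 (SE 0.48), which left 11.4% of the WT level. Without HFCF WT replicate 3 this difference was -3.67 (SE 0.30). Mup20, Mup3 and Mup21 together held 19435, 16896 and 13436 CPM in HFCF WT livers and 9097, 12514 and 12524 CPM in HFCF livers labelled HuRHep-/- (log2 difference -0.56, SE 0.23, or -0.70, SE 0.25, without HFCF WT replicate 3). The body members thus made up 49.8% of the 9-member reads in chow WT livers, 42.2% in chow livers labelled HuRHep-/-, 40.6% in HFCF WT livers and 10.2% in HFCF livers labelled HuRHep-/-, where Mup20 alone made up 64.3%.

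Per kilobase of principal transcript, the order of mean levels in chow WT livers was Mup3 (11774 ± 1164 CPM per kb), Mup7 (9091 ± 4543), Mup22 (8147 ± 1299.8), Mup20 (7620.4 ± 688), Mup11 (1815 ± 1165), Mup19 (1596 ± 853), Mup17 (894 ± 879), Mup9 (517 ± 554) and Mup21 (258 ± 34.0). Of the neighbours in this order, only Mup20 and Mup11 differed by more than the larger of their SDs. In chow livers labelled HuRHep-/- Mup20 came before Mup3 (16589.7 ± 1269 against 10061 ± 2390 CPM per kb), followed by Mup7 (8910.1), Mup22 (6844), Mup11 (3042), Mup19 (1251), Mup9 (819.7), Mup17 (417) and Mup21 (394). In HFCF WT livers the order was Mup20 (10784 ± 3365 CPM per kb), Mup3 (6562), Mup22 (6170.4), Mup7 (3669.7), Mup19 (2098), Mup17 (835), Mup11 (823), Mup9 (496) and Mup21 (184). In HFCF livers labelled HuRHep-/- the order was Mup20 (8780.2 ± 1472 CPM per kb), Mup3 (3173 ± 616), Mup22 (1343 ± 387), Mup21 (160.2 ± 37.9), Mup7 (76.8 ± 79.6), Mup19 (62.8 ± 22.3), Mup17 (11 ± 6.1), Mup11 (7.86 ± 4.19) and Mup9 (7.82 ± 4.39). By its mean Mup21, the lowest of the 9 in the other 3 groups, stood above 5 body members there. Its range overlapped that of Mup7 (125 to 200.5 against 30.3 to 169 CPM per kb). The neighbours Mup7 and Mup19, and likewise Mup17, Mup11 and Mup9, did not differ beyond their spread.

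**Figure D3:**
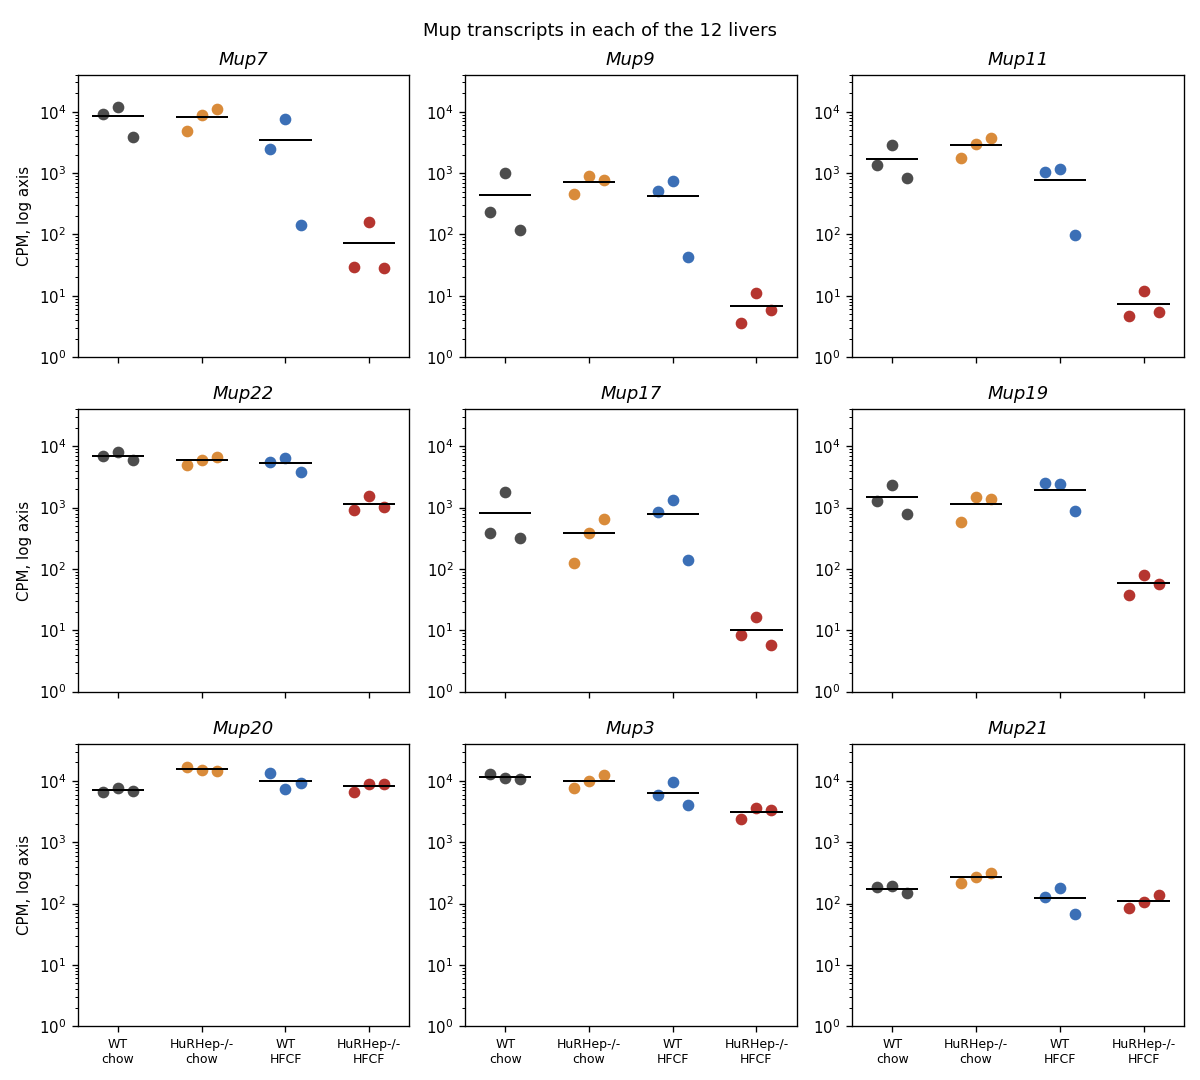
Level of each Mup member in each of the 12 livers (CPM, log axis), in order along the array, with points for livers and lines for the means of the 4 groups of 3. Mup7, Mup9, Mup11, Mup17 and Mup19 lie far lower in the HFCF livers labelled HuRHep-/- than in the chow livers, HFCF WT replicate 3 is the lowest WT liver on HFCF for these genes, and Mup20, Mup3 and Mup21 stay within a narrower range.

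On chow, Mup20 was the one member called for the genotype label. It stood at 6560.3, 7787 and 6868 CPM in the WT livers and at 16637, 15255 and 14294 CPM in the livers labelled HuRHep-/-, so that the groups did not overlap and the level was 2.19-fold higher (log2 fold change 1.13, SE 0.16, adjusted p = 0.0131, limma with Benjamini-Hochberg adjustment over 13526 genes). Calls here needed 3 things, an adjusted p not above 0.05, a 1.5-fold or larger change, and 10 or more counts per group. By these limits 1 of 9 members was called, as were 2.23% of all genes tested (1.28% higher and 0.954% lower). The call of Mup20 was lost without any one of 4 of the 6 livers (adjusted p up to 0.0732), while its log2 fold change stayed between 1.07 and 1.2. Its pseudogene neighbour Mup-ps19 moved alongside it, from 4.48, 6.62 and 5.82 to 12.1, 13.1 and 11.7 CPM (log2 fold change 1.14, SE 0.15, adjusted p = 0.0125), and reads shared between the pair cannot be told apart.

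Mup21 followed at 184, 192 and 149 CPM in chow WT livers against 214, 273 and 312 CPM, again without overlap (as for 14.8% of all genes in this direction), but its log2 fold change of 0.61 (SE 0.15) missed the threshold (adjusted p = 0.067). Mup3 stood at 12888, 11136 and 10733 CPM in chow WT livers and at 7563, 9871 and 12266 CPM in those labelled HuRHep-/- (log2 fold change -0.24, SE 0.21, adjusted p = 0.516). Both groups of Mup3 overlapped.

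The body members varied widely among chow livers of the same label. Mup7 was at 9289, 12141 and 3851 CPM in WT livers and at 4925, 8774 and 11081 CPM in livers labelled HuRHep-/-. Mup9 was at 228, 996 and 117 CPM in WT livers and at 463, 892 and 769.5 CPM in livers labelled HuRHep-/-. In the WT group replicate 2 was the highest and replicate 3 the lowest for both genes. Mup11 stood at 1342, 2903 and 820.0 CPM against 1741, 2992 and 3754 CPM, and Mup19 at 1294, 2346 and 797 CPM against 585, 1507 and 1387 CPM. Mup17 stood at 393, 1769 and 324 CPM against 127, 381 and 650.0 CPM, and Mup22, the steadiest of the 6, at 6942, 8169 and 5934 CPM against 4873, 6075 and 6732 CPM. All 6 overlapped between the labels, with log2 fold changes from -0.94 (Mup17) to 1.2 (Mup9) and adjusted p from 0.287 to 0.959. Without chow WT replicate 2 Mup9 was called (log2 fold change 2.07, adjusted p = 0.0336, limma), among 278 genes in that fit. The 95% intervals were wide, from -2.67 to 0.79 for Mup17 and from -1.0 to 1.10 for Mup7 on the log2 scale.

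On HFCF, 5 body members were lower in livers labelled HuRHep-/- than in WT livers past both limits. Mup19 stood at 2554, 2385 and 896 CPM in WT livers and at 38.0, 79.3 and 57.3 CPM in livers labelled HuRHep-/- (log2 fold change -5.00, SE 0.43, adjusted p = 0.00528). Mup11 stood at 1054, 1146 and 96.5 CPM against 4.74, 11.8 and 5.39 CPM (log2 fold change -6.20, SE 0.93, adjusted p = 0.0207). In both genes the highest liver labelled HuRHep-/- lay below the lowest WT liver, HFCF WT replicate 3.

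Mup17 stood at 834, 1346 and 141 CPM in HFCF WT livers against 8.33, 16.5 and 5.74 CPM (log2 fold change -5.89, SE 0.81, adjusted p = 0.0189). Mup9 stood at 504, 740.1 and 42.3 CPM against 3.54, 10.9 and 5.79 CPM (log2 fold change -5.38, SE 1.03, adjusted p = 0.0335, or 0.0501 with voom weights). These groups were also apart. Mup22, the highest body member per kilobase in the HFCF WT livers, kept a larger part of its level, with 5634, 6451 and 3854 CPM against 910.3, 1536 and 1024 CPM (log2 fold change -2.22, SE 0.26, adjusted p = 0.0125). Without HFCF WT replicate 3 the log2 fold changes were -5.48 for Mup19, -7.36 for Mup11, -6.85 for Mup17, -6.66 for Mup9 and -2.43 for Mup22, with adjusted p from 0.00111 to 0.00896 (limma). Of these 5, only Mup19 was called whichever HFCF liver was left out (adjusted p up to 0.0349). Mup9, Mup11 and Mup17 lost their calls without HFCF WT replicate 1 or any one of the 3 livers labelled HuRHep-/- (adjusted p 0.0632 to 0.134), Mup9 also without HFCF WT replicate 2 (adjusted p = 0.0551), and Mup22 without HFCF WT replicate 1 or HFCF HuRHep-/- replicate 1 (adjusted p = 0.0508 and 0.0699).

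Mup7 missed the threshold with all 6 livers in the fit and group as the only term. It stood at 2486, 7578 and 141 CPM in HFCF WT livers and at 29.0, 156 and 28.1 CPM in livers labelled HuRHep-/-, so that HFCF WT replicate 3 lay within the range of the other group (log2 fold change -4.80, SE 1.41, adjusted p = 0.0816). Without that liver the log2 fold change was -6.44 with an adjusted p of 0.0195.

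The 3 distal members did not pass the limits with the 6 HFCF livers in the fit. Mup3 stood at 5887, 9425 and 4058 CPM in WT livers against 2436, 3586 and 3343 CPM, without overlap (log2 fold change -1.0, SE 0.31, adjusted p = 0.0922). Mup3 was called without HFCF WT replicate 3 (log2 fold change -1.28, adjusted p = 0.0398) and in the fit to all 12 livers (log2 fold change -0.98, adjusted p = 0.0464). Mup20 stood at 13420.0, 7292 and 9312 CPM against 6576, 8823 and 9045 CPM (log2 fold change -0.28, 95% interval -0.90 to 0.33, adjusted p = 0.504). Mup21 stood at 128, 179 and 67.0 CPM against 84.7, 105 and 136 CPM (log2 fold change -0.13, 95% interval -0.95 to 0.69, adjusted p = 0.832). Without HFCF WT replicate 3 the log2 fold changes were -0.30 for Mup20 (adjusted p = 0.551) and -0.52 for Mup21 (adjusted p = 0.164). The intervals of Mup20 and Mup21 lie above every point estimate among the body members, the nearest being that of Mup22 at -2.22.

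In all, 5 of 9 members were called lower and none higher on HFCF, where 3.66% of 14295 genes were called, 2.20% as higher and 1.46% as lower. The median log2 fold change of the members was -4.80 and that of all genes -0.0011. For 6 of the 9 members no liver labelled HuRHep-/- reached any WT liver, which held for 17.5% of all genes in this direction. Without HFCF WT replicate 3 there were 7 members called, namely these 5, Mup3 and Mup7, while all genes called rose from 523 to 848 (5.97%, with 1.87% lower). There were 4 without HFCF WT replicate 2, with 2.48% of all genes called. Without HFCF WT replicate 1, HFCF HuRHep-/- replicate 1, 2 or 3 there were 1, 1, 2 and 2, while all genes called fell to between 28 and 97 (0.199% to 0.691%).

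**Figure D4:**
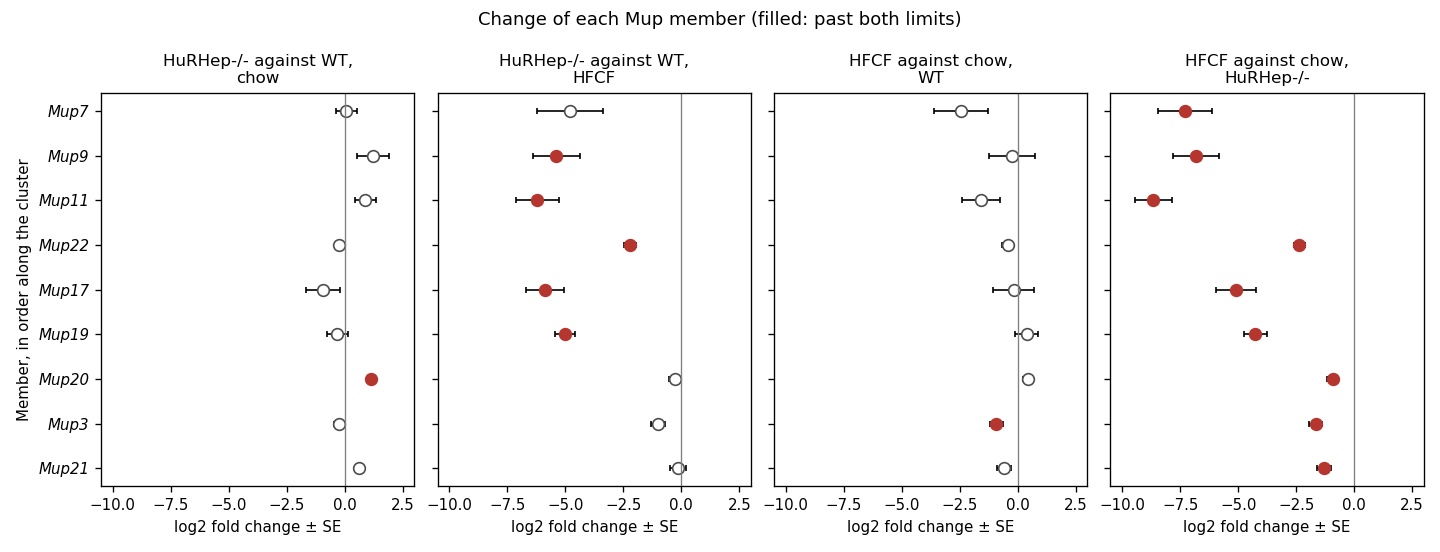
Log2 fold change with its standard error for each Mup member, in order along the array, in 4 panels for the genotype contrast on each diet and the diet contrast under each label. Filled points passed an adjusted p of 0.05 and a fold change of 1.5, which was 1 member on chow, 5 on HFCF, 1 for diet in WT livers and all 9 for diet in livers labelled HuRHep-/-.

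Among WT livers the diet contrast was small beside the spread. Only Mup3 was called, 1.90-fold lower on HFCF (log2 fold change -0.92, SE 0.28, adjusted p = 0.0345, limma), among 14535 genes of which 9.41% were called, 6.17% as higher and 3.24% as lower. Its groups did not overlap, which held for 19.8% of all genes in this direction. Mup3 was no longer called when the fit was limited to the 6 WT livers (adjusted p = 0.0805) or when any WT liver other than HFCF WT replicate 2 was left out, with a log2 fold change of -0.63 (adjusted p = 0.131) without HFCF WT replicate 3. Leaving out HFCF WT replicate 2 gave 4 called members, and all genes called rose from 1368 to 1786 (12.3%). Mup19 and Mup20 had higher means on HFCF (log2 fold change 0.39 and 0.46), and Mup7 had the lowest estimate, -2.45 (SE 1.16, adjusted p = 0.146), or -0.80 without HFCF WT replicate 3. For Mup9 and Mup17 the estimates of -0.25 and -0.17 turned to 1.03 and 0.80 without that liver. Without it Mup11 stood at -0.42, Mup19 at 0.88, Mup20 at 0.49, Mup21 at -0.20 and Mup22 at -0.21 on the log2 scale, and none was called.

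Among livers labelled HuRHep-/- all 9 members were called lower on HFCF than on chow, where 19.1% of all genes were called, 14.2% as higher and 4.90% as lower, and no HFCF liver reached any chow liver for any member. Not overlapping in this direction held for 27.1% of all genes. The largest estimates were those of Mup11 (log2 fold change -8.65, SE 0.81), Mup7 (-7.28, SE 1.16) and Mup9 (-6.81, SE 0.98), followed by Mup17 (-5.09, SE 0.88) and Mup19 (-4.26, SE 0.50). Mup22 fell by 2.37 on the log2 scale, Mup3 by 1.66, Mup21 by 1.31 and Mup20 by 0.93. Adjusted p ran from 7.4e-05 for Mup11 to 0.00699 for Mup20, and all 9 stayed called when any single liver was left out. This contrast and the one between labels on HFCF share the 3 HFCF livers labelled HuRHep-/-, so the 2 sets of values are not independent.

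The difference of the genotype contrasts between both diets was taken from the fit to all 12 livers. All 9 members had estimates below 0, from -7.06 (Mup11, SE 1.15) to -0.71 (Mup21, SE 0.42), but none passed the adjusted threshold. The lowest adjusted p were 0.0616 (Mup19), 0.0731 (Mup11) and 0.0916 (Mup22). No gene at all was called for the interaction by limma (0% of 14535 genes, also 0 with voom weights), although 2084 genes, 7 of the members among them, had an unadjusted p under 0.05. With HFCF WT replicate 3 left out, 34 genes (0.235%) were called, and Mup7, Mup9, Mup11, Mup19 and Mup22 were among them. The interaction estimates without that liver were -8.23 for Mup11, -7.84 for Mup9, -6.48 for Mup7, -5.90 for Mup17, -5.14 for Mup19, -2.17 for Mup22, -1.42 for Mup20, -1.11 for Mup21 and -1.02 for Mup3.

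Many of the other Mup rows were lower in the same livers. Of the 31, 25 were tested on HFCF and 8 were called lower in livers labelled HuRHep-/- (1.46% of all genes). Under that label 19 of 26 tested were called lower on HFCF than on chow (4.90% of all genes). For genotype on HFCF, 15 of 24 tested were called lower without HFCF WT replicate 3 (1.87% of all genes). Mup14 stood at 2574, 1863 and 327 CPM in HFCF WT livers against 49.5, 103 and 72.2 CPM (log2 fold change -4.03, SE 0.73, adjusted p = 0.0305, or -4.94 without HFCF WT replicate 3). Mup1 stood at 973, 1553 and 74.9 CPM against 14.2, 56.7 and 11.4 CPM, and Mup16 at 528, 689 and 339 CPM against 93.4, 156 and 108 CPM. Mup14, Mup1 and Mup16 share most of their words with the members and are not independent of them. Mup5 and Mup6, also among the 8 called, share 21.7% and 8.93% of their words with members. Of their words 63.0% and 74.2% occur in no other gene.

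The reads counted to Mup15 differed widely between livers of 1 group. This row had 12, 23408 and 3 reads in the 3 chow WT livers, 0, 1 and 3 in the chow livers labelled HuRHep-/-, 2065, 14237 and 13 in the HFCF WT livers and none in the HFCF livers labelled HuRHep-/-. It was named for its spread, after its values were seen. All words of its transcript recur in other Mup rows, so these counts cannot be tied to this copy.

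Few known regulators of Mup transcription were called. Of 17 listed genes of the growth hormone axis, 16 were tested on chow and 17 on HFCF, and none was called for genotype, with a median log2 fold change of -0.07 on chow and -0.02 on HFCF. On HFCF 1 of the 17 was called, as higher, without HFCF WT replicate 3. Ghr, the growth hormone receptor, stood at 475 ± 13.5 CPM (SD, n = 3) in chow WT livers, 401 ± 47.4 in chow livers labelled HuRHep-/-, 405 ± 47.0 in HFCF WT livers and 304 ± 14.9 in HFCF livers labelled HuRHep-/-. On HFCF its log2 fold change was -0.42 (adjusted p = 0.0459), under the fold limit. Stat5b, which carries the signal to the nucleus, stood at 31.6 ± 1.65 CPM in HFCF WT livers and 27.7 ± 2.80 in those labelled HuRHep-/- (adjusted p = 0.176).

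Targets of STAT5 that feed back on the receptor varied from liver to liver. Cish stood at 15.2, 3.57 and 3.69 CPM in HFCF WT livers and at 24.1, 4.98 and 4.55 CPM in those labelled HuRHep-/-, and Socs2 at 27.6, 13.3 and 10.1 CPM against 19.0, 11.6 and 17.0 CPM. Igf1, the main endocrine product of the axis, stood at 475 ± 45.2 CPM against 463 ± 17.0 CPM (log2 fold change -0.05). The sole called genes of this list were in the diet contrast of livers labelled HuRHep-/-, namely Igfbp3, a carrier of IGF1, which was higher on HFCF (log2 fold change 1.44, SE 0.26, adjusted p = 0.00168), and Igfals, the third partner of that complex, which was lower (log2 fold change -0.62, SE 0.17, adjusted p = 0.0153).

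Among the other listed regulators, Ppara, a receptor for fatty acids, was higher on HFCF than on chow in WT livers (log2 fold change 0.59, SE 0.07, adjusted p = 0.000653), and the coactivator gene Ppargc1a was lower on HFCF in livers labelled HuRHep-/- (log2 fold change -0.91, SE 0.28, adjusted p = 0.0241).

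Other sex-biased liver genes were read from lists. Of 20 male-biased genes none was called for genotype on chow, and 4 of 19 tested were called lower on HFCF (1.46% of all genes), with a list median of -1.10 beside -0.0011 over all genes. When HFCF WT replicate 3 was left out, 14 of the 19 were called lower, and 1.87% of all genes. The 4 called with all livers were Susd4 (15.5, 19.4 and 8.67 CPM in WT livers against 2.24, 3.45 and 2.96 CPM, log2 fold change -2.29, SE 0.31), Ugt2b38 (log2 fold change -1.98, SE 0.43), the complement gene C6 (log2 fold change -1.65, SE 0.22) and the cytochrome P450 gene Cyp2d9 (log2 fold change -1.10, SE 0.15). In the diet contrast 6 of 20 were called lower in WT livers (3 without HFCF WT replicate 3) and 17 of 20 in livers labelled HuRHep-/-. Over all genes 3.24% (2.39% without HFCF WT replicate 3) and 4.90% were called lower. The lists were drawn up with results of these data known, and the Mup genes themselves are not on them.

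Female-biased genes were called for genotype on HFCF alone. On chow none of 14 was, with a list median of -0.45, and their summed level was 28.9 to 47.6 CPM in livers labelled HuRHep-/- against 47.8 to 75.4 CPM in WT livers. On HFCF, of 16 tested, Cyp2a4 and Prom1 were called higher in livers labelled HuRHep-/-, and none lower (list median 0.47). Over all genes 2.20% were called higher. Prom1 was no longer called without HFCF WT replicate 3 (adjusted p = 0.0533). Cyp2a4, a steroid hydroxylase, stood at 0.69, 0.43 and 8.61 CPM in HFCF WT livers and at 155, 81.1 and 88.9 CPM in those labelled HuRHep-/- (log2 fold change 6.21, 95% interval 3.83 to 8.60, adjusted p = 0.0244, or 7.54, SE 0.32, without HFCF WT replicate 3). HFCF WT replicate 3, the WT liver with the lowest body Mup level, had the highest Cyp2a4 of the 3. The summed list stood at 69.2, 69.1 and 135 CPM in HFCF WT livers and at 182 to 289.6 CPM in livers labelled HuRHep-/-. Without Cyp2a4 it stood at 68.5, 68.7 and 126 CPM against 134, 101 and 127 CPM, so that the groups overlapped. For diet under the label HuRHep-/-, 8 of 17 tested were called higher on HFCF and 1 lower (list median 0.96). Over all genes 14.2% were called higher and 4.90% lower. For diet in WT livers 1 of 17 was called higher and 1 lower.

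Over the 12 livers, genes outside the family whose mean-centred log2 CPM lay near the summed Mup level, all among the 5 nearest of 11975 compared, included Cyp2d9, Nudt7, Serpina3k and Car1. Their root mean square differences from it were 0.20, 0.27, 0.29 and 0.30 on the log2 scale, beside an SD of 0.76 for the sum itself. Cyp2d9 and Nudt7 are also on the male-biased list. Cyp2d9 stood at 1953, 2256 and 1715 CPM in chow WT livers, 1658, 1896 and 2081 in chow livers labelled HuRHep-/-, 1651, 1472 and 1115 in HFCF WT livers and 621, 685 and 672 in HFCF livers labelled HuRHep-/-. Serpina3k, a serine protease inhibitor, fell from 7606 ± 1653 CPM in HFCF WT livers to 3267 ± 451 CPM in those labelled HuRHep-/- (log2 fold change -1.22, SE 0.20, adjusted p = 0.0235). Nudt7, a peroxisomal hydrolase, and Car1, a carbonic anhydrase, stood at 488 ± 141 and 3.97 ± 1.53 CPM in HFCF WT livers and at 262 ± 33.5 and 2.38 ± 0.41 CPM in those labelled HuRHep-/-. These livers fall into 4 groups and share their scaling, so the likeness is a description.

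**Figure D5:**
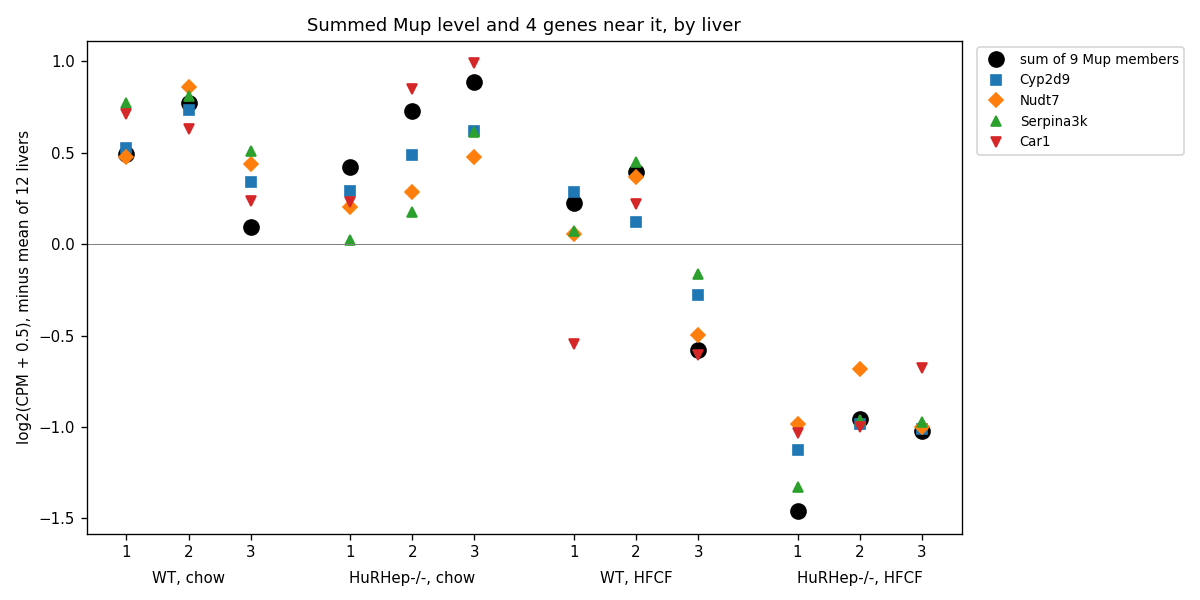
Summed level of the 9 Mup members (black) and of 4 genes near it, as log2(CPM + 0.5) minus the mean of the 12 livers, for each liver in its group. The 3 HFCF livers labelled HuRHep-/- lie lowest and HFCF WT replicate 3 lies below the other HFCF WT livers for the Mup sum, and these genes follow within a root mean square difference of 0.20 to 0.30.

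Genes beside the array were not called lower for genotype. Of 21 listed flanking genes, 19 were tested on HFCF, with a median log2 fold change of 0.05, and only Zfp37 was called, higher and at a level of 0.40 to 0.60 CPM against 0.13 to 0.18 CPM. None of 17 tested was called on chow. The orosomucoid genes, lipocalins of the acute phase further along the chromosome, were not called for genotype.

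Among 9 other lipocalins tested, Lcn2, the iron-trapping lipocalin of inflammation, was called higher in chow livers labelled HuRHep-/- (24.9, 48.0 and 10.1 CPM against 1.81, 4.58 and 2.45 CPM, log2 fold change 3.07, SE 0.55, adjusted p = 0.0286). Apom, the apolipoprotein M lipocalin of plasma lipoproteins, was called higher on HFCF (109, 113 and 124 CPM against 65.2, 89.7 and 68.1 CPM, log2 fold change 0.63, SE 0.12, adjusted p = 0.0368). Without HFCF WT replicate 3 Apom fell below the fold limit (log2 fold change 0.58), whereas 2 others of the 9 were called higher. On neither diet was one called lower.

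Acute-phase genes were called for genotype on chow, where no body member was with all livers in the fit. Of 25 listed, 8 were called higher and 1 lower in chow livers labelled HuRHep-/- (1.28% and 0.954% of all genes). Among those higher were Saa1 (log2 fold change 4.01, SE 0.64), Lcn2 and the metallothionein gene Mt2 (log2 fold change 3.05, SE 0.42). The heme carrier Hpx was lower (log2 fold change -0.91, SE 0.15). On HFCF Itih3 was called higher (log2 fold change 0.85, SE 0.14) and Hpx lower (log2 fold change -1.61, SE 0.10). Leaving out HFCF WT replicate 3 gave 5 called higher and 1 lower.

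Markers of other liver cells moved in the same livers as the Mup genes, and their part in the result was not tested. On HFCF the summed level of 8 cholangiocyte markers was 40.0 to 90.4 CPM in WT livers and 139 to 253 CPM in livers labelled HuRHep-/-, and 4 of 7 tested were called higher (2.20% of all genes). Summed Kupffer and macrophage markers were 391 to 670.1 against 656 to 914 CPM (0 of 12 called), stellate cell markers 298 to 556 against 532 to 633 CPM (0 of 10 called), and lymphocyte and neutrophil markers 6.96 to 11.7 against 17.3 to 18 CPM (0 of 10 called). Sinusoidal endothelial markers were 174 to 212 against 201 to 205 CPM (0 of 10 called). Hepatocyte markers summed to 94232 to 110831 CPM in HFCF WT livers and 92137 to 97301 CPM in those labelled HuRHep-/-, with none of 14 called and a median log2 fold change of -0.02. HFCF WT replicate 3 had the highest Kupffer and stellate sums of the WT livers on that diet, 670.1 and 556 CPM. Without it 5 of 12 Kupffer, 2 of 10 stellate, 2 of 10 lymphocyte and neutrophil and 4 of 7 cholangiocyte markers were called higher for genotype on HFCF, and still none of 14 hepatocyte markers. Over all genes 4.11% were called higher in that fit. In the diet contrast of livers labelled HuRHep-/-, where all 9 members were lower, 4 of 14 hepatocyte markers were called lower, and 8 of 12 Kupffer, 10 of 10 stellate and 7 of 7 tested cholangiocyte markers were called higher. Over all genes 4.90% were called lower and 14.2% higher in that contrast. No marker found in both tables was at 0 in all livers. In bulk liver, fewer hepatocytes and less Mup RNA per hepatocyte cannot be told apart.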

How the data were processed

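Bulk RNA-seq of 12 livers was read from the 2 raw count tables. Per the labels and methods, RNA of integrity number above 6.0 was made into stranded libraries, and the authors mapped and counted reads with CLC Genomics Workbench against GRCm38.p6. The deposited values, whole-number read counts written as text with comma separators (of no fixed unit as they stand, and other than plain numbers), were read as numbers. Log2 CPM (pseudocount 0.5, TMM factors from genes reaching the equivalent of 10 counts in 3 libraries) were fitted with limma 3.58.1 (variance trend, R 4.3.3). Genotype was fitted within each table, and diet and the interaction over the genes in both. The study describes the chow libraries as 3 mice per group. For the HFCF libraries separate mice are not stated in the sources used here, and p-values there measure the spread between these samples. Some values without HFCF WT replicate 3 were added after seeing the data. Coding sequences (GENCODE vM21) were aligned with MAFFT 7.526. Alternatives were other scaling, filters, pseudocount 2, voom weights, a replicate block and leaving out each library. The named genes are all members, Elavl1, called or preset regulators, the 3 largest called changes per list and direction, and the 5 nearest genes; some results under this rule are not reported here. The members and lists were chosen with earlier results of these data known. The fit was tested on simulated data. Counting error is small at these depths, and 3 livers a group limit the precision. No per-sample column was left unassigned.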

Additional observations from a re-analysis of the deposited data

Results flagged for a closer look

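Ppara, the fatty acid receptor gene listed among the regulators, was the one named gene whose genotype contrast ran in opposite directions without overlap in the 2 diets. It stood at 33.7, 37.5 and 35.8 CPM in chow livers labelled HuRHep-/- against 31.2, 32.4 and 32.1 CPM in chow WT livers, and at 39.1, 41.3 and 41.6 CPM against 49.0, 52.4 and 43.0 CPM on HFCF. The interaction was -0.40 on the log2 scale and did not pass the threshold (adjusted p = 0.167, limma).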

How the results depend on the processing

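Summed Mup levels moved by less than the spread between replicates (0.36 on the log2 scale) under every alternative run for them. They were not run with other filters, with voom weights or with a wider or narrower set of groups in the fit. Other than with a left-out library, the count of called members changed in 4 cases. For genotype on HFCF, 5 became 4 with voom weights, 6 with the replicate block and 7 with all 12 livers in the fit (Mup3, adjusted p = 0.0464, and Mup7, adjusted p = 0.0251, added). For diet in WT livers, 1 became 0 when the fit was limited to the 6 WT livers. Leaving out single libraries gave 0 to 2 called members for genotype on chow, 1 to 7 on HFCF, 0 to 4 for diet in WT livers, 9 throughout for diet in livers labelled HuRHep-/- and 0 to 5 for the interaction. Elavl1 kept a higher level in livers labelled HuRHep-/- (log2 0.36 to 0.44 on chow, 0.36 to 0.45 on HFCF), with adjusted p up to 0.105 and 0.121. Signs turned over these fits for Mup7 (-0.44 to 0.40) and Mup19 (-0.70 to 0.11) for genotype on chow, Mup21 on HFCF (-0.52 to 0.18), and Mup9 (-1.03 to 1.03) and Mup17 (-0.83 to 0.80) for diet in WT livers. The causes were not tested. All genes called rose without the fold limit (563, 965, 3434 and 5566 in the 4 contrasts) and ranged with single libraries left out from 8 to 320, 28 to 848 and 850 to 1786 in the first 3 contrasts. Replicate numbers did not pair the livers (correlations of deviations from -0.14 to 0.19), and a replicate block called 1, 6, 1, 9 and 0 members, with Mup7 on HFCF added (adjusted p = 0.0280). All genes called with that block were 225, 764, 1362, 2750 and 0. With voom weights Mup9 on HFCF was not called (adjusted p = 0.0501). With 3 livers a group, differences within the wide intervals of the body members were not detectable.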
